A study of Mus musculus with 18 samples.

Results

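The genes described here are 34 genes of the cell cycle and DNA replication, chosen by name: 11 that act in G1 or restrain it, 13 of replication and 10 of mitosis. Of these, 33 had at least 1 probe set named for them alone, and each was read from its brightest probe set, by the mean of all arrays. Ccnb1 had no such probe set and is not analysed here. Of the 33 genes, 25 exceeded the median of at least 3 of the 18 arrays and were tested, out of 12578 genes tested and 18193 with a probe set in all. The other 8 were too dim to test and are given as values. By role, 10 of 11 G1 genes, 11 of 13 replication genes and 4 of 10 mitosis genes were tested.

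Livers came from male mice 12 weeks old with the knockout genotype Alb-Cre+/-/POR-lox+/+ or the control genotype Alb-Cre-/-/POR-lox+/+. Both carry the floxed alleles of Por, which encodes the P450 oxidoreductase that passes electrons to microsomal cytochromes P450, and the albumin promoter restricts Cre to hepatocytes. From the age of 4 weeks each genotype ate a synthetic diet for 8 weeks, made with a mix of fish and fungal oils (ARASCO and menhaden oil), with canola oil or with lard. The added fat made up 7% of the diet in the sample labels and 6% in the series text. Mice were fasted for 4 h before the livers were taken. Each Affymetrix GeneChip array carried pooled RNA of 3 mice. Each of the 6 groups holds 3 pools, or 9 mice, and p-values measure the spread between pools. The medians of the arrays ran from 5.229 to 5.286 (log2), and correlations within a group from 0.9928 to 0.9969. No probe set of the annotation table used names Por, alone or with other genes, so the deletion itself was not checked here. All 9 hepatocyte markers with a probe set were bright, with a mean over the markers between 13.48 and 13.83 (log2) in every array. In the averaged knockout comparison 0 of 9 passed in limma (0 at an unadjusted p under 0.05), with Ttr at -0.05 and Apoa1 at -0.05. Their summed linear level was 142700 to 146800 in knockout lard pools, against 149800 to 153300 in control lard pools, and did not overlap. On canola oil it overlapped (142100 to 145400 in knockout, 137800 to 147300 in control pools). It also overlapped on fish/fungal oil (134800 to 143600 in knockout, 143200 to 146600 in control pools). The pool called knockout lard replicate 3 stood apart, with the highest value of all arrays for 13 of the 25 tested genes, and values without it are given below.

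In G1, D-type cyclins bind CDK4 and the resulting kinase starts to release E2F factors from the retinoblastoma protein. E2F factors then raise the genes of replication licensing and nucleotide synthesis. A second wave of genes, kept off in quiescent cells by a repressor complex at CHR elements, carries cells through mitosis. Adult hepatocytes are mostly quiescent and re-enter the cycle after loss of liver mass or exposure to mitogens. In the bulk RNA measured here, a change in the number of cycling cells and a change in RNA per cell cannot be told apart.

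Promoters of 26 of the 34 genes were found in the RefSeq promoter table (build GRCm38.p6, 29 windows), and 250 bases before each transcript start were searched on both strands for 3 motifs. The E2F motif was taken as TTTCCCGC, TTTCGCGC, TTTGCCGC or TTTGGCGC, the CHR as TTTGAA, and CCAAT as written. The 4 windows printed here belong to 2 subunits of the replicative helicase and 2 genes of mitosis whose values are described further on, with E2F and CHR words in capitals. The Mcm6 window lies at chr1:128359706-128359955 on the minus strand and the Mcm5 window at chr8:75109259-75109508 on the plus strand. The Cdk1 window lies at chr10:69352913-69353162 and the Mki67 window at chr7:135716380-135716629, both on the minus strand. For Mcm5 and Mki67 the transcript start of the table lies inside the annotated span of the gene.
Mcm6: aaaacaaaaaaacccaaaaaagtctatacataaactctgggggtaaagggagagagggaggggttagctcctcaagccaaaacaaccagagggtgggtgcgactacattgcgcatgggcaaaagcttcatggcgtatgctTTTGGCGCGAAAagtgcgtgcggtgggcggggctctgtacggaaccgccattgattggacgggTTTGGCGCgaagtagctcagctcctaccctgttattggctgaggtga
Mcm5: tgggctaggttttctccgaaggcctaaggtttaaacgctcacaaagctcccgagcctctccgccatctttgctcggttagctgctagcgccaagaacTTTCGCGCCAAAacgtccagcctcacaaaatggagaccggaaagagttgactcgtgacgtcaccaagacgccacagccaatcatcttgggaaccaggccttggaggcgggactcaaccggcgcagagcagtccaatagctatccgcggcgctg
Cdk1: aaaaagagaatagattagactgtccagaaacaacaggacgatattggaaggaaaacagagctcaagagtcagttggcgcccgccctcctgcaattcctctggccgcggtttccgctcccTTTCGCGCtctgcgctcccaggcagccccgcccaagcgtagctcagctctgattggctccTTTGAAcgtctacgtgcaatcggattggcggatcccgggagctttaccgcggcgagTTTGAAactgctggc
Mki67: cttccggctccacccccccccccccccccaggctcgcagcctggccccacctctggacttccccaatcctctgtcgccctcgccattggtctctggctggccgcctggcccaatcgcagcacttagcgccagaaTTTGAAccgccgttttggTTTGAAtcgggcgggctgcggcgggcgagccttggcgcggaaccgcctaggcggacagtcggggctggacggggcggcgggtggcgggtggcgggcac

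The Mcm6 window held 3 E2F words, 2 of them overlapping on opposite strands, and the Mcm5 window held 2 overlapping ones. Cdk1 had 1 E2F word and 2 CHR words, and Mki67 had 2 CHR words and no E2F word of these spellings. An E2F word was present in 4 of 12 windows of replication genes (33.3%), 1 of 8 of mitosis genes (12.5%) and 1 of 9 of G1 genes (11.1%), against 1.86% of all 32851 windows in the table. CHR words were found in 4 of 8 mitosis windows (50.0%), 1 of 12 replication windows (8.33%), 0 of 9 G1 windows and 5252 of all 32851 windows; over the 29 windows of these genes the share was 17.2%. CCAAT, read on either strand, was found in 7 of 8 mitosis windows (87.5%), 9 of 12 replication windows, 3 of 9 G1 windows (33.3%) and 33.8% of all windows. A match is a description of the letters only.

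Loss of hepatic Por, averaged over the 3 diets, went with higher Ccnd1 and Cdt1, and 2 of the 25 tested genes passed the threshold, both higher in the knockout. Ccnd1 encodes cyclin D1, the G1 cyclin that answers mitogens, and CDT1 loads the MCM helicase onto origins. Passing means an adjusted p under 0.05 in limma, with Benjamini-Hochberg adjustment over all 12578 genes; 575 of these, 4.57%, passed in the same comparison. At an unadjusted p under 0.05 the counts were 8 of 25 and 2262 of 12578. The 8 include Ccnb2, which was bright enough to test only through knockout lard arrays. The median log2 change of the 25 genes was 0.12, with 21 of them above 0, against a median of 0 over all genes tested, of which 48% were above 0.

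Ccnd1 (chr7:144929931-144939831) was higher in knockout livers on all 3 diets without overlap of the pools. Its log2 values on fish/fungal oil were 8.87, 8.27 and 8.47 in knockout pools, against 7.40, 7.57 and 8.02 in control pools. On canola oil they were 8.61, 8.97 and 8.62 in knockout pools, against 8.07, 8.14 and 8.33 in control pools. On lard they were 9.43, 9.03 and 9.41 in knockout pools, against 8.64, 8.84 and 8.41 in control pools. The lowest knockout pool of each diet lay above the highest control pool of that diet. The averaged log2 change was 0.69 ± 0.10 (SE), 1.62-fold (adjusted p = 0.00085 in limma), and all 3 probe sets of the gene gave it, at 0.69, 0.89 and 0.77.

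Within single diets the knockout change of Ccnd1 was 0.87 ± 0.18 on fish/fungal oil (1.83-fold, adjusted p = 0.047 in limma), 0.55 ± 0.18 on canola oil (adjusted p = 0.58) and 0.66 ± 0.18 on lard (adjusted p = 0.1). The fish/fungal call ended in 21 of 28 alternative settings, 15 of them among the 18 that leave out 1 array (adjusted p up to 0.23). A dependence of its knockout change on diet did not pass the interaction test (adjusted p = 1 in limma). Over all 25 genes 0 passed that test, as did 0 of the 12578 (0%), with 3 of 25 and 242 of 12578 at an unadjusted p under 0.05.

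**Figure D1:**
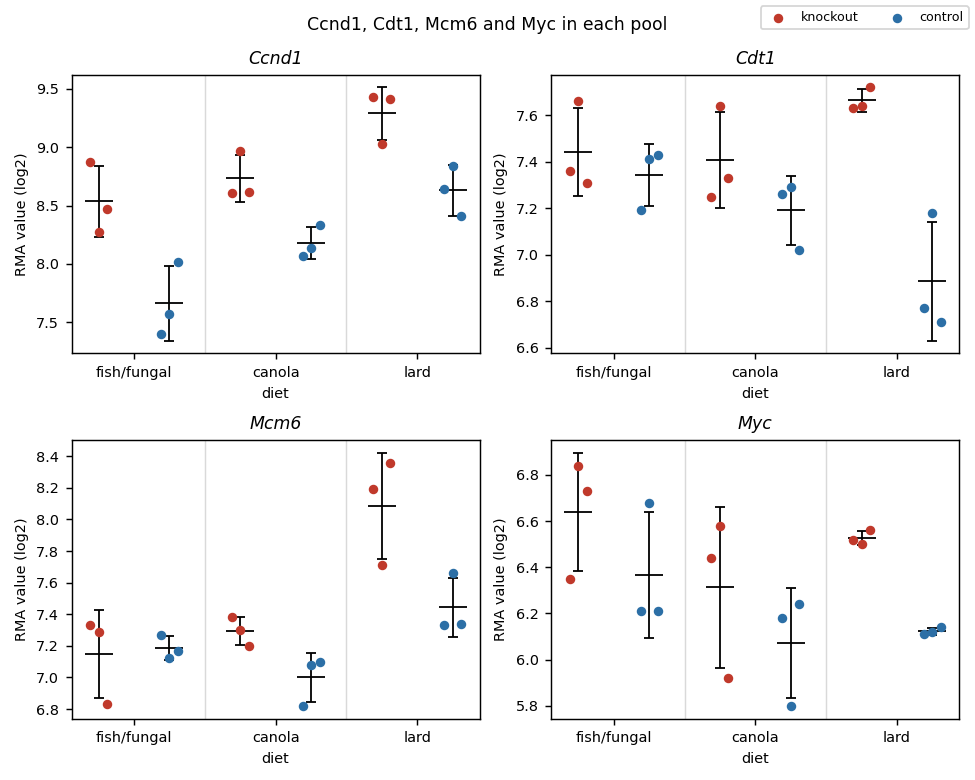
Log2 values (vertical axis) of Ccnd1, Cdt1, Mcm6 and Myc in every pool, by diet (horizontal axis). Points are single pools of 3 livers, knockout left of control, and bars are mean ± SD of 3 pools. Ccnd1 pools of the knockout lie above those of the control on each diet, and those of Cdt1, Mcm6 and Myc do so on lard. Those of Mcm6 also do so on canola oil.

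The rest of G1 showed no call for the knockout. Myc, a transcription factor of cell growth, was 6.52, 6.50 and 6.56 in knockout lard pools, against 6.11, 6.12 and 6.14 in control lard pools. On the other diets its pools overlapped between genotypes, and the averaged change was 0.31 ± 0.10 (adjusted p = 0.085 in limma). With array weights it was 0.33 and passed (adjusted p = 0.03), as it did without knockout canola replicate 3 (adjusted p = 0.018), without knockout fish/fungal replicate 1 or without control fish/fungal replicate 2 (both 0.042). Cdk2, the partner of cyclins E and A, had an averaged change of -0.17 ± 0.07 (adjusted p = 0.2).

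The other G1 genes lay close to 0. The D cyclins Ccnd2 and Ccnd3 had averaged changes of 0.12 and 0.03, the cyclin E gene Ccne1 -0.02, the cyclin D kinase gene Cdk4 0.10 and E2f1, the E2F activator, 0.03. The kinase inhibitors p21 and p27 are encoded by Cdkn1a and Cdkn1b. Their averaged changes were 0.02 ± 0.06 and 0.05 ± 0.16. Cdkn1b varied widely between pools of every group (SD within groups 0.39, against 0.14 for Cdkn1a), and its pools overlapped between genotypes on every diet. The dim cyclin E gene Ccne2 lay between 3.13 and 4.18 in all arrays.

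Among replication genes Cdt1 (chr8:122568015-122573130) was the 1 that passed in the averaged comparison, with a log2 change of 0.36 ± 0.08 (1.29-fold, adjusted p = 0.013 in limma). The pools were furthest apart on lard. On fish/fungal oil Cdt1 was 7.36, 7.66 and 7.31 in knockout pools, against 7.19, 7.41 and 7.43 in control pools. On canola oil it was 7.25, 7.64 and 7.33 in knockout pools, against 7.26, 7.29 and 7.02 in control pools. On lard it was 7.63, 7.64 and 7.72 in knockout pools, against 6.77, 7.18 and 6.71 in control pools. Pools overlapped on the 2 oils and were separate on lard, where control pools 1 and 3 were the lowest of all 18.

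On lard the Cdt1 change was 0.77 ± 0.14 (1.71-fold, adjusted p = 0.012 in limma), the 1 call among the 25 genes there, against 0.986% of all genes tested. On fish/fungal oil it was 0.10 ± 0.14 (adjusted p = 0.92) and on canola oil 0.22 ± 0.14 (adjusted p = 0.92). The interaction of genotype and diet had an unadjusted p of 0.0063 and an adjusted p of 1, so the changes were not shown to differ between diets. The lard call ended without control lard replicate 1 (adjusted p = 0.058) or replicate 3 (0.075). With probe sets whose names end in _s_at, _x_at or _a_at left out, Cdt1 was read from a second bright probe set. That one gave 0.25 averaged (adjusted p = 0.094 in limma) and 0.58 on lard (adjusted p = 0.07), so both calls rest on the brightest probe set. Averaged over its 3 probe sets, 1 of them dim, the changes were 0.20 (adjusted p = 0.041) and 0.42 (adjusted p = 0.039).

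The MCM genes encode the 6 subunits of the replicative helicase. In the averaged knockout comparison 0 of the 6 passed, and their changes were 0.10 for Mcm2, 0.20 for Mcm3, 0.22 for Mcm4, 0.22 for Mcm5, 0.30 ± 0.09 for Mcm6 (adjusted p = 0.071 in limma) and -0.02 for Mcm7. Mcm6 passed without knockout lard replicate 2 (adjusted p = 0.016) or without knockout fish/fungal replicate 3 (0.021). Mcm5 on lard was 6.96, 6.82 and 7.51 in knockout pools, against 6.58, 6.74 and 6.50 in control pools, separate but with 1 knockout pool far above the others (0.49 ± 0.18, adjusted p = 0.3). Mcm2 and Mcm4 overlapped between genotypes on lard, at 0.43 ± 0.17 and 0.39 ± 0.21. Mcm6 pools were separate on lard (0.64 ± 0.16, adjusted p = 0.067 in limma) and on canola oil (0.29 ± 0.16, adjusted p = 0.88). Without knockout lard replicate 3 the changes on lard were 0.22 for Mcm2, 0.13 for Mcm4, 0.29 for Mcm5 and 0.51 for Mcm6. The averaged changes of these genes were then 0.02, 0.14, 0.15 and 0.25.

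Of the other replication genes, Pcna, the sliding clamp of DNA polymerase, had an averaged change of 0.03 ± 0.07. Gmnn, the geminin that inhibits CDT1, was at 0.13 ± 0.09. The ribonucleotide reductase subunit genes Rrm1 and Rrm2 were at -0.12 ± 0.06 and 0.11 ± 0.13. Rrm1 was lower in all 3 knockout canola pools (7.20, 7.08 and 6.97) than in the control canola pools (7.27, 7.56 and 7.27), without passing the test (-0.28 ± 0.10, adjusted p = 0.62). Its second bright probe set gave 0.12 in the averaged comparison. The dim genes Tyms and Cdc6, which encode thymidylate synthase and a helicase loader, had averaged changes of -0.02 and 0.17.

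**Figure D2:**
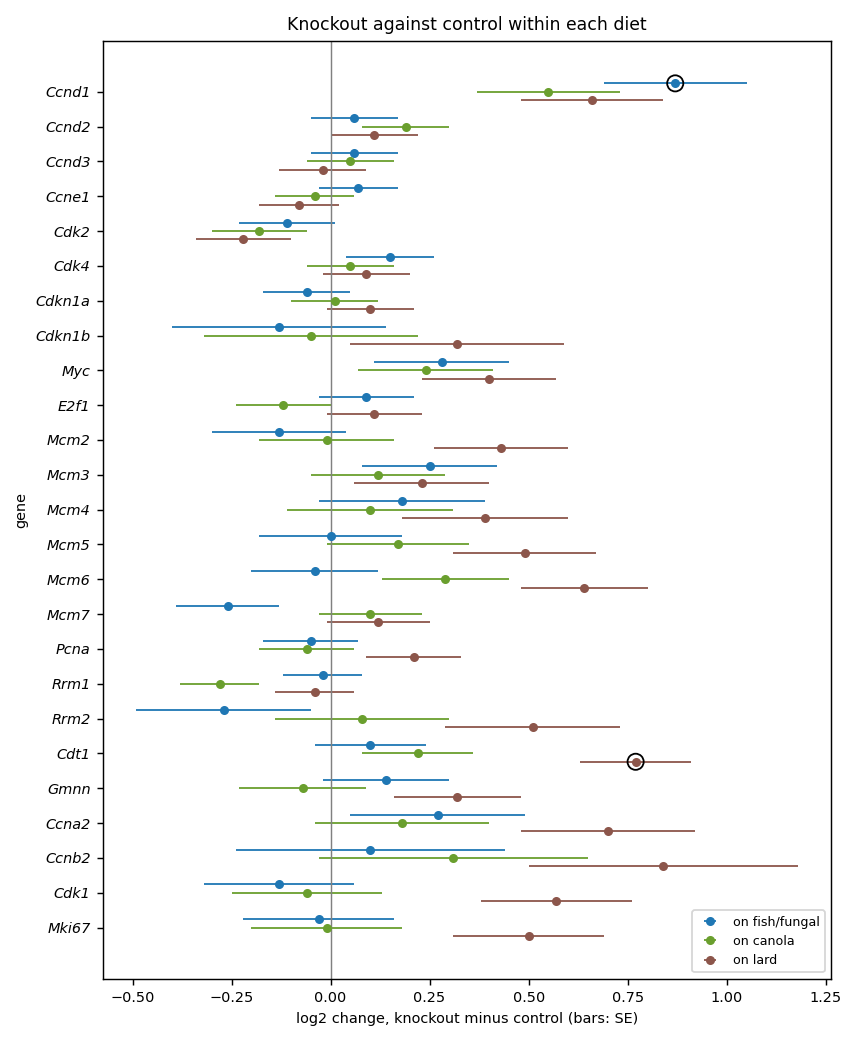
Log2 change, knockout minus control (horizontal axis), of the 25 tested genes (vertical axis) on each diet. Points are fitted changes, bars are SE, and circles mark an adjusted p under 0.05, which are Ccnd1 on fish/fungal oil (0.87) and Cdt1 on lard (0.77). Most replication and mitosis genes have their highest point on lard.

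Among mitosis genes 0 of the 4 tested passed in the averaged knockout comparison, with 2 of 4, Ccna2 and Ccnb2, at an unadjusted p under 0.05 in limma. Ccna2, the cyclin of S phase and G2, had an averaged change of 0.38 ± 0.13 (1.31-fold, adjusted p = 0.094), which became 0.43 (adjusted p = 0.043) with array weights and 0.46 (adjusted p = 0.035) without knockout canola replicate 3. Ccnb2, a mitotic B-type cyclin, was at 0.42 ± 0.20 (adjusted p = 0.27). It exceeded the array median in 4 of 18 arrays, 2 of them knockout lard, 1 knockout canola and 1 control lard. With at least 3 needed, it passed the brightness filter only through the knockout lard arrays, the group where it was highest. Its changes that involve knockout lard pools are therefore descriptions only. Cdk1, the kinase that drives entry into mitosis, was at 0.13 ± 0.11 (adjusted p = 0.61). Mki67, which encodes the Ki-67 proliferation marker of mitotic chromosomes, was at 0.15 ± 0.11 (adjusted p = 0.51). Without knockout lard replicate 3 the averaged changes were 0.27 for Ccnb2 and 0.08 for Mki67.

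On the 2 oils the mitosis genes overlapped between genotypes, and on lard 3 of the 4 were separate. Cdk1 on lard was 7.11, 7.09 and 7.38 in knockout pools, against 6.57, 6.68 and 6.61 in control pools (0.57 ± 0.19, adjusted p = 0.23 in limma). Ccna2 on lard was 6.52, 6.76 and 7.16 in knockout pools, against 6.11, 6.14 and 6.08 in control pools (0.70 ± 0.22, adjusted p = 0.17). Mki67 on lard was 5.75, 5.71 and 6.38 in knockout pools, against 5.52, 5.42 and 5.41 in control pools (0.50 ± 0.19, adjusted p = 0.32). Every knockout lard pool lay above every control lard pool for these 3 genes, and pool 3 was the highest. Ccnb2 on lard was 4.96, 5.34 and 6.44 in knockout pools, against 5.24, 4.85 and 4.13 in control pools, and overlapped.

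**Figure D3:**
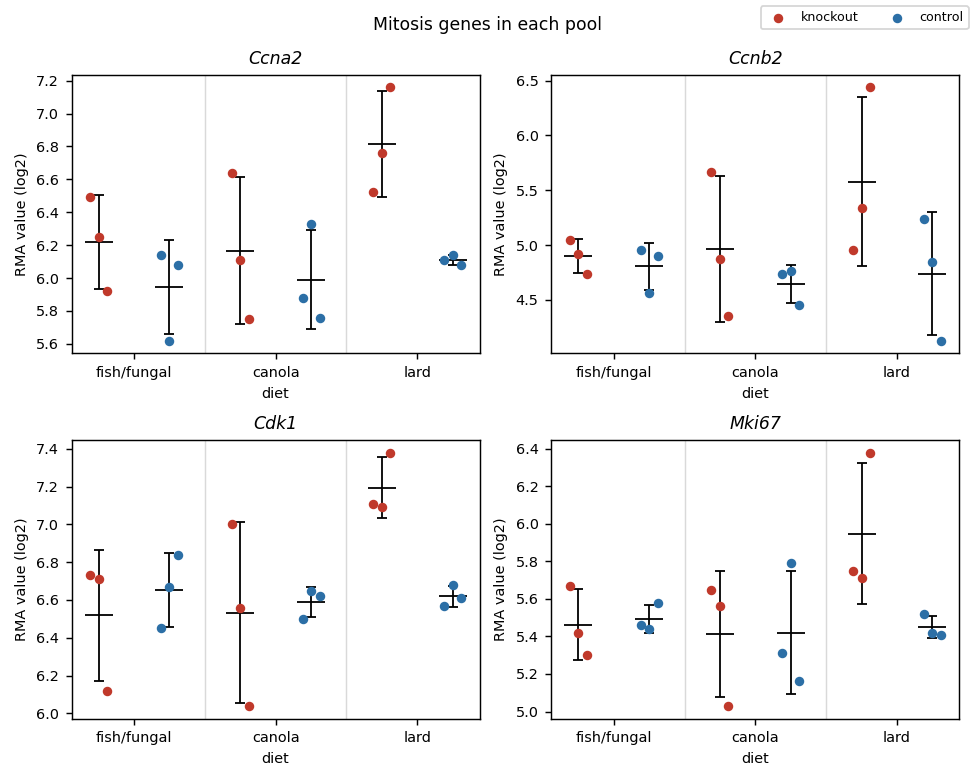
Log2 values (vertical axis) of the 4 tested mitosis genes in every pool, by diet (horizontal axis). Points are single pools of 3 livers, knockout left of control, and bars are mean ± SD of 3 pools. Pools of the knockout on lard stand above the control on lard for Ccna2, Cdk1 and Mki67, and overlap for Ccnb2.

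The 5 dim mitosis genes with a probe set had values mostly under the medians of their arrays, and background limits how large a change can appear. Birc5, the survivin gene of the chromosomal passenger complex, was 4.65, 4.74 and 5.82 in knockout lard pools, against 4.35, 3.81 and 4.05 in control lard pools. Aurka, the kinase of spindle poles, was 4.84, 4.92 and 5.51 in knockout lard pools, against 4.35, 4.28 and 4.44 in control lard pools. Pools of both genes were separate on lard, and only knockout lard pool 3 lay above its array's median. Fitted without a filter on dim genes, the averaged changes were 0.46 ± 0.13 for Birc5 (adjusted p = 0.07 in limma), 0.37 ± 0.11 for Aurka (0.082), 0.17 for the spindle checkpoint kinase gene Bub1 (0.32), 0.06 for the passenger complex kinase gene Aurkb and 0.05 for the topoisomerase gene Top2a.

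In the count of genes whose knockout lard pools were all higher than the control lard pools, 10 of the 25 were included, against 9.14% of all 12578 genes tested. They were Ccnd1, Myc, Mcm5, Mcm6, Pcna, Rrm2, Cdt1, Ccna2, Cdk1 and Mki67. The median log2 change of the 25 on lard was 0.32, against 0 over all genes, and 11 of 25 had an unadjusted p under 0.05, against 1325 of 12578. Both the median and the 11 include Ccnb2, which was bright enough to test only through knockout lard arrays. On fish/fungal oil the median was 0.06, against -0.01 over all genes, and on canola oil 0.05, against 0.01. Ccnd1 was the 1 call of the 25 genes on fish/fungal oil, against 0.294% of all genes tested. On canola oil 0 of 25 passed in limma, against 0.0636% of all genes, with 2 of 25 and 772 of 12578 at an unadjusted p under 0.05.

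A single pool carried part of the pattern on lard. Knockout lard replicate 3 had the highest value of all 18 arrays for 18 of the 33 genes with a probe set (54.5%), and for 705 of all 12578 genes tested (5.61%). It was the highest for 8 of 9 mitosis genes, 9 of 13 replication genes and 1 of 11 G1 genes. No other array was the highest for more than 2 of the 25 tested genes. Without it, the median change of the 25 genes on lard was 0.22 in place of 0.32, and 20 instead of 21 were above 0. The Cdt1 change on lard was then 0.74 (adjusted p = 0.046 in limma). Ccna2 was then at 0.53 on lard, Cdk1 at 0.48, Ccnb2 at 0.41 and Mki67 at 0.28.

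**Figure D4:**
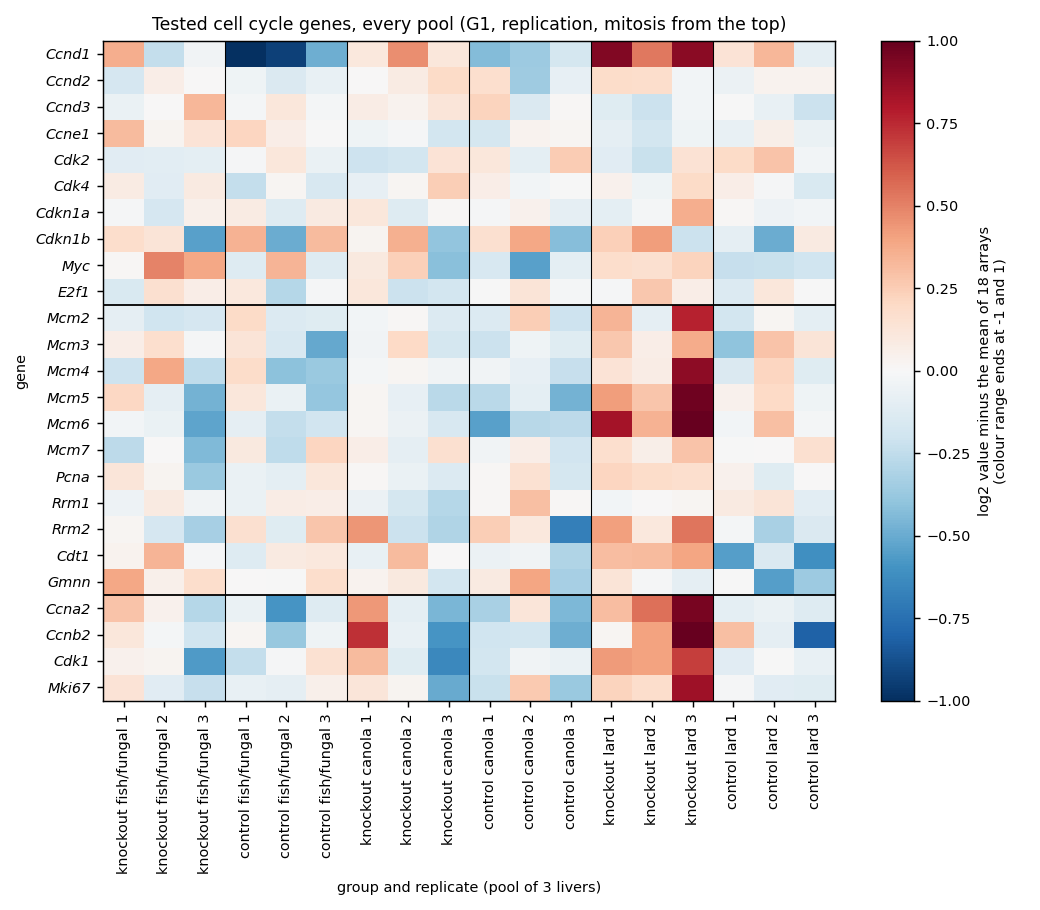
Log2 value of each of the 25 tested genes (rows, with lines between G1, replication and mitosis) in each of the 18 pools (columns, by group and replicate), minus that gene's mean over 18 arrays. The colour scale ends at -1 and 1, red being higher. Knockout lard replicate 3 is the reddest column for replication and mitosis genes, and Ccnd1 is bluest in control pools on fish/fungal oil.

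The mitosis genes also varied together between pools of 1 group. Over the 18 arrays, after subtracting each group's mean, the 6 pairs among the 4 tested mitosis genes had Pearson's r between 0.59 and 0.85 with a median of 0.74, the highest being Ccna2 with Mki67. The 55 pairs of replication genes had a median of 0.30, the 45 pairs of G1 genes -0.04 and all 300 pairs 0.14. The arrays behind each r are the same 18 and share their normalization, so these values are descriptions only.

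The diet comparison with calls among these genes was fish/fungal oil against lard. Averaged over both genotypes, Ccnd1 and Mcm6 fell on fish/fungal oil, 2 of 25 genes against 2.32% of all genes tested. At an unadjusted p under 0.05 the counts were 8 of 25 and 1648 of 12578. The median log2 change of the 25 genes was -0.12, against 0 over all genes, and 5 of 25 were above 0. Second bright probe sets differed from the ones used for Mcm3 (-0.52, against -0.17) and Rrm1 (-0.35, against -0.01).

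Ccnd1 was lower on fish/fungal oil than on lard in each genotype without overlap of the pools, as its values above show. The averaged log2 change was -0.86 ± 0.13 (0.552-fold, adjusted p = 0.00084 in limma), and the other 2 probe sets gave -1.03 and -0.84. In knockout livers it was -0.75 ± 0.18 (adjusted p = 0.08), and in control livers -0.97 ± 0.18 (0.511-fold, adjusted p = 0.012). The control call ended without control fish/fungal replicate 1 (adjusted p = 0.076), control fish/fungal replicate 2 (0.071) or control lard replicate 2 (0.088). Ccnd1 was the 1 call of the 25 genes in control livers, against 0.716% of all genes tested. On canola oil its level lay between the other diets in both genotypes. Canola oil against lard gave -0.50 ± 0.13 (adjusted p = 0.33) and fish/fungal against canola oil -0.36 ± 0.13 (adjusted p = 0.26).

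Mcm6 (chr1:128331575-128359705), whose promoter is printed above, was 7.33, 7.29 and 6.83 in knockout fish/fungal pools, against 8.19, 7.71 and 8.36 in knockout lard pools. In control livers it was 7.27, 7.12 and 7.17 on fish/fungal oil, against 7.33, 7.66 and 7.34 on lard. All fish/fungal pools lay below the lard pools of their genotype, by a wide margin in the knockout and a narrow one in the control. The averaged log2 change was -0.60 ± 0.11 (0.662-fold, adjusted p = 0.0062 in limma), and of the other 2 probe sets, one above the median in 3 of 18 arrays gave -0.91 and one above it in 0 of 18 gave 0.02. In knockout livers it was -0.94 ± 0.16 (0.523-fold, adjusted p = 0.0097), the 1 call of the 25 genes there, against 0.461% of all genes. In control livers it was -0.25 ± 0.16 (adjusted p = 0.77), and the difference between genotypes was not tested on its own; the interaction over all diets had an unadjusted p of 0.024 and an adjusted p of 1. The knockout call ended without knockout lard replicate 1 (adjusted p = 0.073), knockout lard replicate 3 (0.057) or knockout fish/fungal replicate 3 (0.074), and with only the 2 groups compared in the fit (0.15).

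**Figure D5:**
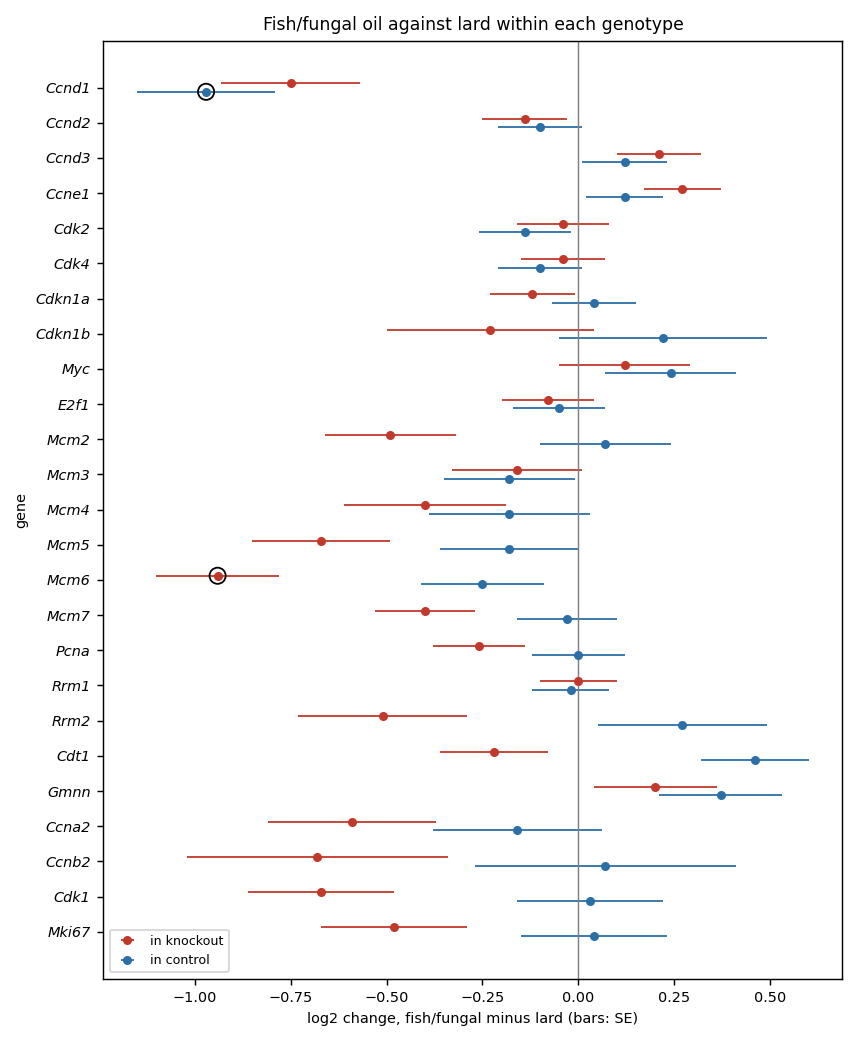
Log2 change, fish/fungal oil minus lard (horizontal axis), of the 25 tested genes (vertical axis) in knockout and in control livers. Points are fitted changes, bars are SE, and circles mark an adjusted p under 0.05, which are Ccnd1 in control (-0.97) and Mcm6 in knockout (-0.94). Mcm5, Mcm6, Rrm2 and the 4 mitosis genes lie below 0 in knockout livers, and lower there than in control livers. In control livers Rrm2 lies above 0 and the 4 mitosis genes lie between -0.16 and 0.07.

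In knockout livers 9 of the 25 genes had all fish/fungal pools below all lard pools, against 6.14% of all genes tested: Ccnd1, Mcm5, Mcm6, Mcm7, Pcna, Rrm2, Ccna2, Cdk1 and Mki67. In the same livers 8 of 25 had all canola pools below all lard pools, against 5.97%: Ccnd1, Mcm4, Mcm5, Mcm6, Pcna, Rrm1, Cdk1 and Mki67. Both counts, and the count for the knockout on lard, use the same 3 knockout lard pools, so they are not separate observations. Mcm5 was 6.75, 6.45 and 6.07 in knockout fish/fungal pools and 6.56, 6.46 and 6.27 in knockout canola pools, against 6.96, 6.82 and 7.51 in knockout lard pools. Its changes against lard in knockout livers were -0.67 ± 0.18 on fish/fungal oil (adjusted p = 0.15 in limma) and -0.67 ± 0.18 on canola oil (adjusted p = 0.67). Cdk1 was 6.73, 6.71 and 6.12 in knockout fish/fungal pools and 7.00, 6.56 and 6.04 in knockout canola pools, against 7.11, 7.09 and 7.38 in knockout lard pools. Its changes were -0.67 ± 0.19 on fish/fungal oil (adjusted p = 0.19) and -0.66 ± 0.19 on canola oil (adjusted p = 0.79).

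The median change of the 25 genes for fish/fungal oil against lard was -0.23 in knockout livers and 0 in control livers, against -0.01 and 0 over all genes tested. Without knockout lard replicate 3 the knockout median was -0.21, but 8 of 25 changes were above 0 at 2 decimals in place of 4. The 4 tested mitosis genes lay between -0.68 and -0.48 in knockout livers and between -0.16 and 0.07 in control livers. The -0.68 was that of Ccnb2, which passed the brightness filter only through knockout lard arrays, and Cdk1 followed at -0.67. Without knockout lard replicate 3 the knockout changes shrank to -0.25 for Ccnb2, -0.26 for Mki67, -0.42 for Ccna2 and -0.58 for Cdk1. Mcm2 was then at -0.28 in place of -0.49, Mcm4 at -0.13 in place of -0.40 and Mcm5 at -0.47 in place of -0.67. Cdt1 went the other way in control livers, at 7.19, 7.41 and 7.43 on fish/fungal oil against 6.77, 7.18 and 6.71 on lard, without passing (0.46 ± 0.14, adjusted p = 0.22 in limma). Its inhibitor gene Gmnn also had a higher mean there, at 8.71, 8.70 and 8.88 on fish/fungal oil against 8.70, 8.15 and 8.34 on lard (0.37 ± 0.16, adjusted p = 0.56). At 2 decimals its lowest fish/fungal pool and its highest lard pool were equal. In knockout livers Ccne1 was 7.27, 6.98 and 7.09 on fish/fungal oil against 6.86, 6.77 and 6.91 on lard, higher without overlap (0.27 ± 0.10, adjusted p = 0.37).

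The remaining diet comparisons gave 0 calls of 25 in limma. For fish/fungal against canola oil, 0.986% of all genes passed averaged over genotypes, 0.159% in knockout livers and 0.262% in control livers. The 25 genes had 3, 2 and 1 at an unadjusted p under 0.05 in these comparisons, against 1218, 745 and 826 of 12578. For canola oil against lard, 0 of all 12578 genes (0%) passed averaged over genotypes, in knockout livers or in control livers. The 25 genes had 5, 8 and 4 at an unadjusted p under 0.05 in these comparisons, against 852, 607 and 579 of 12578. The largest change of the 25 in the averaged canola comparison was that of Mcm6 (-0.62 ± 0.11, adjusted p = 0.15), separate in both genotypes.

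Other genes of the same pathways were read from lists that hold none of the 34. Over all 12578 genes tested, 3.82% rose and 0.755% fell in the averaged knockout comparison. Of 34 other G1 regulators tested, 3 rose there and 0 fell. They were Cdkn2c, which encodes the CDK4 and CDK6 inhibitor p18 (0.51 ± 0.08, adjusted p = 0.00086 in limma), Cks1b, a subunit of CDK complexes (0.32 ± 0.08, 0.023), and the atypical cyclin gene Ccng2 (0.28 ± 0.07, 0.041). The median of that list was 0.01, against 0 over all genes. Cdkn2c also rose on fish/fungal oil (0.66 ± 0.13, adjusted p = 0.046) and on lard (0.64 ± 0.13, 0.03).

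Of 39 other replication genes 1 rose in that comparison, the origin recognition subunit gene Orc6 (0.25 ± 0.07, adjusted p = 0.043 in limma), with a list median of 0.01. Of 28 other mitosis genes 1 rose, Cdca3 (0.40 ± 0.11, adjusted p = 0.047), which encodes a trigger of mitotic entry, with a list median of 0.05. Neither count exceeded the share of all genes tested that rose, 3.82%. On lard the other mitosis genes had a median of 0.20 and 11 of 28 at an unadjusted p under 0.05, with 0 calls in limma. For fish/fungal oil against lard in knockout livers their median was -0.15, with 9 of 28 at an unadjusted p under 0.05 and 0 calls. Over all genes tested the medians were 0 on lard and -0.01 for the oil in knockout livers, with 1325 and 1076 of 12578 at an unadjusted p under 0.05.

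Of 18 p53 targets 2 rose in the averaged knockout comparison, against 3.82% of all genes tested. They were the death receptor gene Fas (0.39 ± 0.08, adjusted p = 0.0074 in limma) and the polo-like kinase gene Plk2 (0.28 ± 0.06, 0.018), with a list median of 0. Cdkn1a, a classic p53 target among the 34 genes, stood at 0.02 ± 0.06 by its brightest probe set and at 0.12 by the mean of its 2 probe sets. For fish/fungal oil against lard, averaged over genotypes, 1 of the 18 p53 targets fell, against 1.78% of all genes tested. This was Bbc3, which encodes the pro-apoptotic protein PUMA, and it fell by 0.34 ± 0.07 (adjusted p = 0.018 in limma). Of 32 genes of hepatocyte mitogen signalling 2 rose in the averaged knockout comparison, against the same 3.82%. They were the early response transcription factor gene Klf6 (0.69 ± 0.12, adjusted p = 0.0021 in limma) and Btc, which encodes the EGF receptor ligand betacellulin (0.38 ± 0.07, 0.005). On lard 3 rose, against 0.898% of all genes tested, among them Klf6 (1.03 ± 0.20, adjusted p = 0.022) and Btc (0.53 ± 0.12, 0.046).

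Some markers of non-hepatocyte cells, mostly those of Kupffer cells and macrophages, also differed between the genotypes. In the averaged knockout comparison 8 of 18 Kupffer cell and macrophage markers rose, against 3.82% of all genes tested. On lard 5 of the 18 did so, against 0.898%. The elastase gene Mmp12 led both (1.61 ± 0.22 averaged, adjusted p = 0.00046 in limma, and 2.95 ± 0.39 on lard, adjusted p = 0.0013). Itgax (0.26 ± 0.05, adjusted p = 0.0067), Cd68 (0.52 ± 0.10, 0.0069) and Gpnmb (0.51 ± 0.10, 0.0086) also rose in the averaged comparison. All 18 markers were bright enough to test. Their summed linear level was 17060 to 18270 in knockout lard pools, against 10510 to 14320 in control lard pools, and did not overlap. It was 12840 to 21100 in knockout fish/fungal pools, against 14240 to 15600 in control fish/fungal pools, and 11610 to 15400 in knockout canola pools, against 9392 to 13020 in control canola pools. Their part in the cell cycle results was not tested.

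Of 14 stellate cell and fibroblast markers 2 rose in the averaged knockout comparison, against 3.82% of all genes tested. They were Timp1 (0.36 ± 0.06, adjusted p = 0.0031 in limma) and Col4a1 (0.55 ± 0.13, 0.019). On lard 1 of the 14 rose, against 0.898% of all genes. The summed level of the 14 markers was 7481 to 9647 in knockout lard pools, against 7158 to 7312 in control lard pools, and did not overlap. It was also separate on canola oil, at 7284 to 8269 in knockout pools against 6181 to 6921 in control pools. On fish/fungal oil it overlapped, at 7016 to 9182 in knockout pools against 6765 to 7759 in control pools. Of 9 lymphocyte markers tested out of 14 listed, 1 passed, against 4.57% of all genes tested: Ighm fell by 0.58 ± 0.12 (adjusted p = 0.011). The list's median was 0.05, with 5 of 9 above 0, and on lard 0.08, with 6 of 9 above 0. Their summed level was 956.4 to 1157 in knockout lard pools, against 944.6 to 1061 in control lard pools. The acinar enzyme gene Cela1, 1 of 4 pancreatic markers, fell by 0.57 ± 0.13 (adjusted p = 0.018). The summed level of the 4 was 676.8 to 985 in knockout lard pools, against 1157 to 1443 in control lard pools, and did not overlap. It was also separate on fish/fungal oil (757.5 to 1094 in knockout, 1275 to 1630 in control pools). On canola oil it overlapped (767.1 to 1379 in knockout, 971.7 to 1287 in control pools). Endothelial (0 of 13), cholangiocyte (0 of 3), neutrophil (0 of 4) and erythroid (0 of 4) markers gave no calls in limma, with 2, 0, 0 and 1 at an unadjusted p under 0.05. Their leading values were 0.28 for Stab2 and 0.35 for Lyve1, 0.10 for Epcam and -0.06 for Krt19, -0.14 for Mpo and -0.09 for Elane, and -0.17 for Alas2 and 0.35 for Tfrc. The erythroid sum was 1326 to 1409 in knockout lard pools, against 1318 to 1501 in control lard pools. The parts of these cell types were not tested either.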

How the data were processed

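RNA of 18 pools of mouse liver was measured on Affymetrix arrays. The authors deposited log2 expression values, 1 per probe set and array, which RMA produced according to the submitters' processing notes (no version given). That scale was inferred from their range, 2.409 to 14.89, and nothing was normalized again. Of 45101 probe sets, 34945 had 1 gene symbol, 932 had several, 9160 were unnamed and 64 were array controls. Symbols were updated by gene ID against RefSeq (GRCm38.p6), which matched 34741. Each gene was read from its brightest probe set by mean, and 5615 of 18193 genes were set aside as dim. limma 3.58.1 in R 4.3.3 fitted the means of 6 groups with a trend on intensity. P-values are two-sided and adjusted by Benjamini-Hochberg over 12578 genes, with a threshold of 0.05. Log2 changes carry SEs from the fit. The scripts were tested on simulated data.

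The 34 genes, the other lists and the tests were chosen with earlier results of these data known. All 34 genes are named. From each other list, up to 4 genes past the threshold with the smallest p are named for the averaged knockout effect and up to 2 for each other contrast, or up to 2 as values where none passed. The 18 arrays limit precision. The alternatives were a second quantile normalization, centring of arrays, and dropping the filter or raising it to the 75th percentile. Another averaged all probe sets of a gene, and a further one used no probe set whose name ends in _s_at, _x_at or _a_at. The rest were a fit with no trend, array weights, fitting only the groups compared, blocking on the replicate number, and removing 1 array at a time.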

Additional observations from a re-analysis of the deposited data

How the results depend on the processing

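Values for the numbers of the 25 genes past the threshold are given here. For the averaged knockout effect it was 2, but 1 without probe sets whose names end in _s_at, _x_at or _a_at. It was 4 with array weights (Ccnd1, Cdt1, Myc and Ccna2) and 2 to 4 leaving out 1 array. For the knockout on lard it was 1, but 0 without such probe sets, 2 with only the groups compared (Cdt1 and Cdk1) and 0 to 2 leaving out 1 array. For the knockout on fish/fungal oil it was 1, but 0 with repeated quantile normalization, centring, no filter, array weights, only the groups compared or the replicate block, and 0 to 1 leaving out 1 array. For fish/fungal oil against lard in knockout livers it was 1, but 0 with only the groups compared, and 0 to 2 leaving out 1 array. It was 0 to 1 leaving out 1 array for the same comparison in control livers, and 0 to 1 for canola oil against lard, where Mcm6 passed without knockout lard replicate 2. The cause was not tested.

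Some uncalled averaged knockout changes turned sign. Ccnd3 (0.03) was at -0.04 and Rrm1 (-0.12) at 0.01 with the mean of all probe sets. Cdkn1a (0.02) was at 0 when arrays were centred, and Pcna (0.03) at 0 with repeated quantile normalization. Leaving out 1 array gave -0.01 to 0.06 for Ccnd3, -0.05 to 0 for Ccne1, -0.03 to 0.05 for Cdkn1a, -0.05 to 0.12 for Cdkn1b, -0.01 to 0.06 for E2f1 and -0.06 to 0.02 for Mcm7. The averaged changes of Ccnd1 kept their sign and call in all 27 alternatives, for the knockout (0.64 to 0.78) and for fish/fungal oil against lard (-0.95 to -0.79).

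Same-numbered arrays showed no clear tendency to deviate together (45 pairs, median r -0.008, from -0.397 to 0.458, 17 above 0.1). The 90 pairs of different number had a median r of -0.041, with 27 above 0.1. The numbers were therefore not used to pair the pools, and whether some pools shared a batch was not tested. The replicate block left the counts above as they were, save the knockout on fish/fungal oil (Ccnd1 0.87, adjusted p = 0.089).

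Among all genes tested, calls for the averaged knockout effect numbered 575 and 371 to 698 leaving out 1 array, the fewest without knockout canola replicate 2. On lard they numbered 124, 70 with the 75th percentile filter and 30 to 161 leaving out 1 array; on canola oil 8, 90 with array weights, 1 with only the groups compared and 3 to 28; on fish/fungal oil 37, 24 with the mean of probe sets, 22 with only the groups compared and 13 to 43. For fish/fungal oil against lard they numbered 292 and 199 to 369, in knockout livers 58, 30 with array weights, 12 with only the groups compared and 12 to 116, and in control livers 90 and 41 to 93. For fish/fungal against canola oil they numbered 124 and 76 to 155, in knockout livers 20, 10 with only the groups compared, 13 with the replicate block and 5 to 30, and in control livers 33, 50 with centring or array weights and 19 to 48. For canola oil against lard they numbered 0, 1 with array weights and 0 to 4, and in control livers 0, 2 with only the groups compared and 0 to 2.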
